A study of Homo sapiens with 60 samples.

Results

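The cytosolic and endoplasmic reticulum (ER) chaperones described here are 35 genes chosen by name, in 2 arms. The heat shock arm holds 16 genes: the cytosolic HSP70 and HSP90 chaperones, their J-domain and other cochaperones, the mitochondrial chaperones and the transcription factor HSF1. The unfolded protein response arm holds 19 genes: the chaperones, lectins, disulfide isomerases and degradation factors of the ER, with the regulators XBP1 and ATF6. All 35 were found by their Ensembl identifiers among the 60675 genes of the count table, and all 35 were among the 16093 genes with enough counts to be tested.

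The cells were HepG2, an established human liver carcinoma line, kept for 24 h with a water extract at 20, 100 or 500 µg/mL or with vehicle, which the labels give as 0.1% DMSO. Extracts of 4 single plants were used: Citri Unshius Pericarpium (mandarin peel), Cimicifugae Rhizoma (a Cimicifuga rhizome), Bupleuri Radix (a Bupleurum root) and Aconiti Lateralis Radix Preparata (aconite root, processed). Extracts of 2 herbal mixtures, Yijung-tang and Banhasasim-tang, had 3 libraries per dose like the single plants, and the vehicle had 3 libraries. A further mixture, Bojungikgi-tang, had 1 library per dose and entered no test. The labels do not say whether the libraries of a group came from separate cultures, so the p-values measure only the spread between these libraries, which may be technical.

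Both arms of the list belong to the machinery that keeps proteins folded. Heat, oxidants and other insults that unfold proteins in the cytosol release HSF1, which binds heat shock elements and switches on HSP70, HSP90 and their cochaperones. Unfolded proteins in the ER draw the HSP70 chaperone BiP (HSPA5) away from the sensors IRE1, PERK and ATF6, which then raise ER chaperones and degradation factors through XBP1 and ATF6 and amino acid and redox genes through ATF4. Hepatocytes secrete large amounts of plasma protein and carry a high load of ER folding.

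The summed expected counts of a library lay between 17598646 and 30451640, those of vehicle between 21014795 and 22891342. Levels below are CPM, expected counts scaled to a TMM-adjusted library size of 1000000. All 12 hepatocyte and HepG2 markers were expressed in every library, with a summed level of 45080 to 46230 CPM in vehicle libraries. Of 7 markers of other cell types KRT5 was at 0 in 60 libraries, COL1A2 in 59 and PTPRC in 56. The others were detected in every library. Median levels were 54.7 CPM for ACTA2, 43.9 for CD68, 3.09 for PECAM1 and 0.772 for COL1A1. All library titles carry the name BatchB. Within it they put the vehicle in a set of its own and the replicated extracts in 3 sets of 2. A difference between an extract and vehicle therefore cannot be told apart from a difference between title sets. The labels give DMSO for the vehicle only, so a difference in solvent cannot be told apart either. For these reasons 500 against 20 µg/mL within an extract is the leading comparison.

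Members were far more abundant than most tested genes, with a median of 226 CPM against 17.2 CPM for all tested genes. Per kilobase of exon, the vehicle level ran highest for HSP90AB1, the constitutive cytosolic HSP90, at 1103 CPM per kb. HSPD1, the mitochondrial chaperonin HSP60, followed at 919 CPM per kb, CALR, the ER lectin chaperone calreticulin, at 699 and HSPA8, the constitutive HSP70, at 621. The ER chaperones HSP90B1 (GRP94) and HSPA5 stood at 397 and 359 CPM per kb. At the low end were DNAJB4, a cytosolic J-domain cochaperone, at 4.89, ATF6 at 6.36 and EDEM1, a lectin that hands misfolded glycoproteins to degradation, at 9.69 CPM per kb. Over the 57 replicated libraries the highest level of a member was between 1.16 times the lowest for PDIA3 and 2.39 times the lowest for SDF2L1, so the whole set moved within a narrow range.

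Some of these counts are shared with near-identical sequences. HSPA1A and HSPA1B, neighbouring genes of the inducible HSP70, are near-identical in sequence, so counting may split their reads and they are given separately and as a sum. HSPD1 and HSPE1, the chaperonin and its lid, start head to head on opposite strands, and the sources used here do not state whether counting used strand. The expected counts of HSPA1A, HSPA1B, HSP90AA1, HSP90AB1, HSPD1, HSPE1, HSF1, CALR, PDIA3 and PDIA6 were not whole in 90% or more of the libraries, as happens where reads are divided between sequences.

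Promoter windows of RefSeq (GRCh38.p14), 250 bases before to 50 after a transcript start, were available for 33 of the 35 members. They are shown because the arms differ in the motifs they carry. A heat shock element was searched on both strands as 3 units, GAA, TTC and GAA, with 2 free bases between units. It was present in 5 of 15 heat shock members (DNAJA1, HSP90AA1, HSP90AB1, HSPA8 and HSPD1), in 0 of 18 unfolded protein response members and in 0.49% of all 35116 windows. The ER stress response element, CCAAT and CCACG with 9 free bases between them on either strand, was in 0 of 15 heat shock members, in 7 of 18 unfolded protein response members (CALR, CANX, CRELD2, HSP90B1, HSPA5, PDIA6 and XBP1) and in 0.0769% of all windows. ER stress response element II, ATTGG and CCACG with 1 free base between them on either strand, was in HERPUD1, HYOU1 and SDF2L1, in no heat shock member and in 0.0541% of all windows. The element TGACGTGG was found in HYOU1, where it overlaps element II, and in 0.729% of all windows. Members are counted by gene and the shares are of windows, of which a gene can have more than 1. By window, the heat shock element was in 5 of 22 windows of heat shock members. The ER stress response element was in 9 of 24 windows of the other arm, element II in 3 and TGACGTGG in 1. A match describes the letters of a window and is not evidence that a factor binds there.

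The stretches below, each on the strand given, hold matches in capitals. HSP90AB1 holds a heat shock element and HSPD1 overlapping heat shock elements, marked as 1 run. An ER stress response element is marked in HSPA5, HSP90B1 and CALR, and element II, extended by the overlapping TGACGTGG, in HYOU1.
HSP90AB1, chr6:44247758-44247810, plus strand: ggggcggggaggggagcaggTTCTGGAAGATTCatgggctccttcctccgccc
HSPD1, chr2:197500053-197500090, minus strand: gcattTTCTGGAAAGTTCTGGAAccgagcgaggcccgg
HSPA5, chr9:125241371-125241429, minus strand: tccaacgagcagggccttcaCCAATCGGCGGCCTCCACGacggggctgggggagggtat
HSP90B1, chr12:103930196-103930254, plus strand: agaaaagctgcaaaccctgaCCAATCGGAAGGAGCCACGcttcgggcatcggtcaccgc
CALR, chr19:12938364-12938422, plus strand: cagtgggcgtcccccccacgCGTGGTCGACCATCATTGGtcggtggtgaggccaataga
HYOU1, chr11:119057360-119057410, minus strand: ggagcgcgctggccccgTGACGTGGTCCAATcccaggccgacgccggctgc

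The windows before the start of 5 members with some of the largest fold changes are given in full up to the first annotated exon base. CRELD2 and SDF2L1 hold a match in capitals. The stretches of EDEM1, DNAJB4 and DNAJA1 hold none of the 4 motifs before the start, and the heat shock element of DNAJA1 lies from 3 to 15 bases after it, outside the stretch printed.
CRELD2, chr22:49918384-49918633, plus strand: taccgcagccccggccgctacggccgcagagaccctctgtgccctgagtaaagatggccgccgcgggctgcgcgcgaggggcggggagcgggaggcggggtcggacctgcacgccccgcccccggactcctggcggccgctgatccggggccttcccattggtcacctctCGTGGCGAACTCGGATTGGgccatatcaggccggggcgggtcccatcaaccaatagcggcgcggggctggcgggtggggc
SDF2L1, chr22:21642052-21642260, plus strand: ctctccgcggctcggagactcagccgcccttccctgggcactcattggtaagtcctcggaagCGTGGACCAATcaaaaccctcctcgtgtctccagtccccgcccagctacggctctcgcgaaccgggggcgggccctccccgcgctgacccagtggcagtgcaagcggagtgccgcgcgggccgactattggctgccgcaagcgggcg
EDEM1, chr3:5187457-5187672, plus strand: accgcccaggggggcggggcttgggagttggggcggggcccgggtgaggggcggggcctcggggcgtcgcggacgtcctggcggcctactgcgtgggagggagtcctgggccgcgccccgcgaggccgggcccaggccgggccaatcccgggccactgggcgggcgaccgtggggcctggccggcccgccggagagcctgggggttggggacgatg
DNAJB4, chr1:77978925-77979174, plus strand: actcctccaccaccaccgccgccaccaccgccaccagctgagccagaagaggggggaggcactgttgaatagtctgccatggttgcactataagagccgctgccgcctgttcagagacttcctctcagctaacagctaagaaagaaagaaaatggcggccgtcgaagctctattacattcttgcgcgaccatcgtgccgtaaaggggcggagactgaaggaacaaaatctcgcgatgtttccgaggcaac
DNAJA1, chr9:33025023-33025210, plus strand: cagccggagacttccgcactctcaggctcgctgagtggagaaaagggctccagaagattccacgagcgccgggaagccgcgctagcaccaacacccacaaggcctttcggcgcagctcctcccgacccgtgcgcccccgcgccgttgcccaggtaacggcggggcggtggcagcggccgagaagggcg

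With Cimicifugae Rhizoma at 500 against 20 µg/mL more members were called than with any of the other 5 replicated extracts, most of them lower. Here and below a gene is called where its adjusted p is under 0.05 (edgeR quasi-likelihood test, Benjamini-Hochberg over all 16093 genes). Of 16 heat shock members 10 fell and 0 rose, and of 19 unfolded protein response members 12 fell and 2 rose. Together 24 of 35, 68.6%, were called, where 39.2% of all tested genes were called in this comparison and 19.7% were lower. The median log2 fold change was -0.20 over the heat shock arm and -0.21 over the other arm, against 0.0033 over all genes. The median absolute change was 0.21 for members and 0.20 for all genes. An equal change is called more readily at a higher count, and members had higher levels than most tested genes. Here and below, shares called therefore do not compare sizes of change, and their dependence on level was not tested. In bulk RNA, a lower level in fewer cells and less RNA per cell cannot be told apart.

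**Figure D1:**
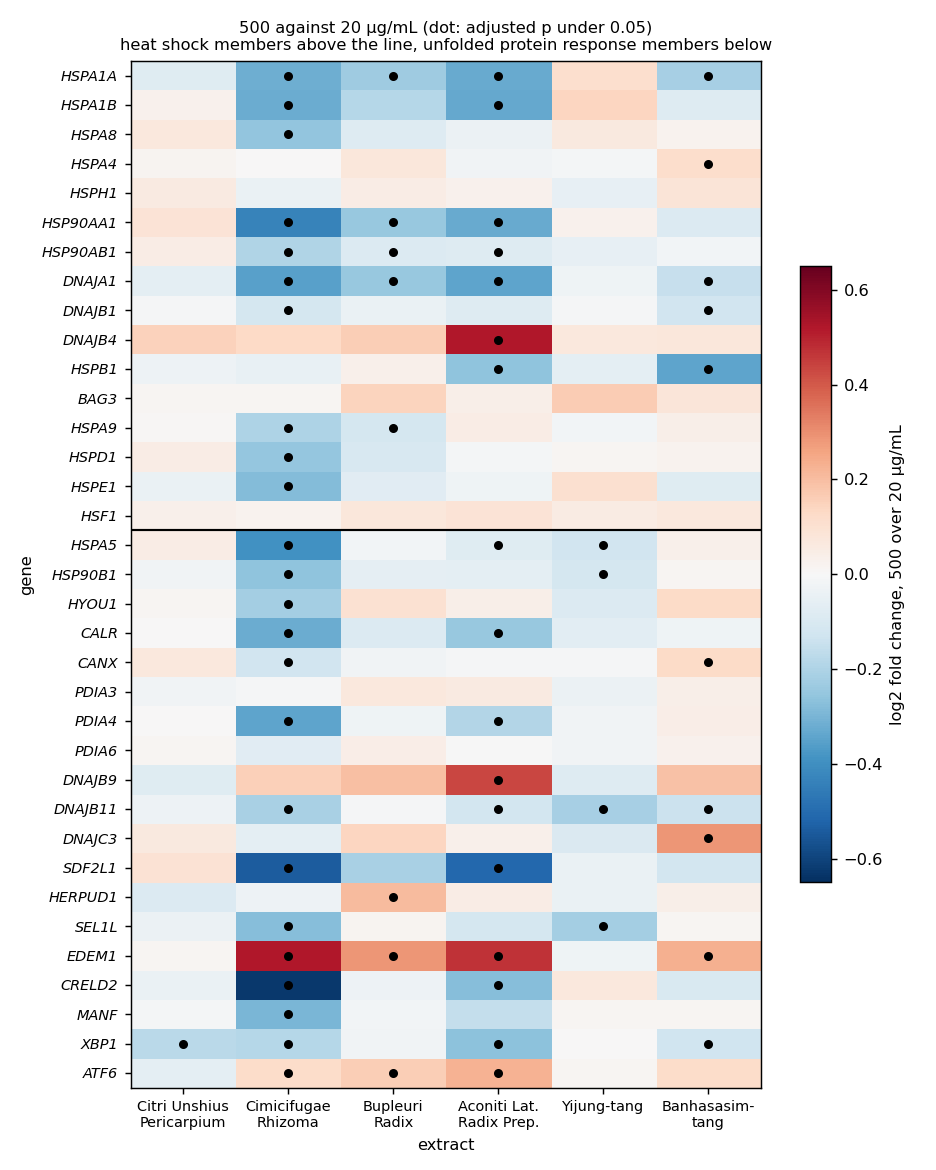
Log2 fold change of each of the 35 members at 500 against 20 µg/mL (rows) in each of the 6 replicated extracts (columns), with marked cells called at an adjusted p under 0.05. The Cimicifugae Rhizoma and Aconiti columns hold most of the called members, with 24 and 17 of 35, while Citri Unshius Pericarpium holds 1.

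Among the cytosolic chaperones HSP90AA1, the inducible HSP90, changed most with Cimicifugae Rhizoma. Its level was 2345, 2433 and 2269 CPM in vehicle libraries, 2245, 2158 and 2101 at 20 µg/mL, 2047, 2004 and 1986 at 100 and 1625, 1516 and 1698 at 500 µg/mL. All 3 libraries at 500 µg/mL were below all 3 at each other dose and below the vehicle, and the log2 fold change of 500 against 20 µg/mL was -0.43 ± 0.043 (SE, adjusted p = 1.11e-11, edgeR). DNAJA1, a J-domain cochaperone of HSPA8, had 230.3, 216 and 241 CPM at 500 µg/mL, against 293, 295 and 286 at 20 µg/mL. Its libraries did not overlap either (log2 -0.35 ± 0.041, adjusted p = 7.54e-10). HSPA8 had 1500.1, 1396 and 1492 CPM at 500 µg/mL, against 1775, 1734 and 1719 at 20 µg/mL, a fall of 16.4% with no overlap.

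The inducible HSP70 pair, which shares reads, fell as well. HSPA1B had 174, 177 and 170.0 CPM at 500 µg/mL, against 218, 215 and 217 CPM at 20 µg/mL, and HSPA1A had 127, 136 and 114 CPM against 155, 157 and 157 CPM. Neither overlapped, each fell by 0.32 on the log2 scale, and their summed counts gave -0.32 with an adjusted p of 0.000236. The mitochondrial chaperones HSPD1, HSPE1 and HSPA9 (mortalin) fell by 0.25, 0.28 and 0.20. HSP90AB1 fell by 0.19 and DNAJB1, the main J-domain partner of inducible HSP70, by 0.11. The call of DNAJB1 was lost without library 1 at 20 µg/mL (-0.10) or library 3 at 500 µg/mL (-0.085), and that of HSPE1 without library 2 at either dose or library 3 at 500 µg/mL (-0.29 to -0.21). Not called were HSPA4 and HSPH1, the HSP110 exchange factors, DNAJB4, the small heat shock protein HSPB1, BAG3 and HSF1 itself, whose log2 fold change was 0.025 ± 0.064.

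In the ER arm, HSPA5, which holds unfolded chains and restrains the stress sensors, had the smallest p. It stood at 1404, 1402 and 1405 CPM in vehicle libraries, 1217, 1206 and 1204 at 20 µg/mL, 1149, 1141 and 1164 at 100 and 934, 894 and 942 at 500 µg/mL of Cimicifugae Rhizoma. The libraries at 500 µg/mL were lowest with no overlap, 23.9% below those at 20 µg/mL (log2 -0.39 ± 0.031, adjusted p = 7.05e-15, edgeR). CRELD2, a secreted ER stress protein whose promoter window is printed above, had 21.5, 22.02 and 19.1 CPM at 500 µg/mL, against 35.8, 31.2 and 29.4 at 20 µg/mL (log2 -0.63 ± 0.10, adjusted p = 5.42e-07). Its groups did not overlap. SDF2L1, a partner of the ER J-domain protein DNAJB11, had 17.1, 15.2 and 16.9 CPM at 500 µg/mL, against 23.1, 24.8 and 23.5 CPM at 20 µg/mL (log2 -0.54 ± 0.091, adjusted p = 2.64e-06). SDF2L1 did not overlap either, and these 2 falls were the largest of the arm with this extract.

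EDEM1 went the other way. It had 82.6, 79.6 and 85.7 CPM at 500 µg/mL of Cimicifugae Rhizoma, against 57.6, 56.2 and 58.2 CPM at 20 µg/mL, with no overlap (log2 0.52 ± 0.047, adjusted p = 3.63e-13, edgeR). SEL1L, the adaptor of the same degradation pathway, fell by 0.28, and HERPUD1, another of its factors, was not called (-0.031 ± 0.050). The remaining ER members that fell were PDIA4, a disulfide isomerase, by 0.34, CALR by 0.32, MANF, a secreted survival factor, by 0.30 and HSP90B1 by 0.26. HYOU1, the ER exchange factor of HSPA5, fell by 0.22, DNAJB11 by 0.21, XBP1 by 0.18 and the lectin CANX (calnexin) by 0.12. The CANX call was lost without library 2 at 500 µg/mL (-0.09). ATF6 had a log2 fold change of 0.12 ± 0.049 (adjusted p = 0.0491), a call lost without any 1 of 5 of the 6 libraries, all but library 2 at 500 µg/mL (0.082 to 0.13).

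Other lists moved with this dose as well. The summed level of the 12 hepatocyte markers was 40660 to 42710 CPM at 500 µg/mL, against 46090 to 46780 CPM at 20 µg/mL of Cimicifugae Rhizoma, with 3 genes higher and 5 lower. The 8 genes read as signs of RNA quality, among them the mitochondrial ribosomal RNAs and MALAT1, summed to 39270 to 44340 CPM at 500 µg/mL. At 20 µg/mL they summed to 32840 to 35590 CPM, and 4 of 7 tested genes were higher and 1 lower at 500 µg/mL. Here and below this sum is mostly mitochondrial ribosomal RNA and says little of the other genes. Median levels over all libraries were 25740 CPM for MT-RNR2, 7933 for MT-RNR1 and 456 for MALAT1. Markers of other cell types summed to 89.3 to 100.5 CPM at 500 µg/mL, against 97.8 to 102 CPM, with 1 of 4 tested higher and 3 lower. The part of these shifts in the chaperone result was not tested.

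**Figure D2:**
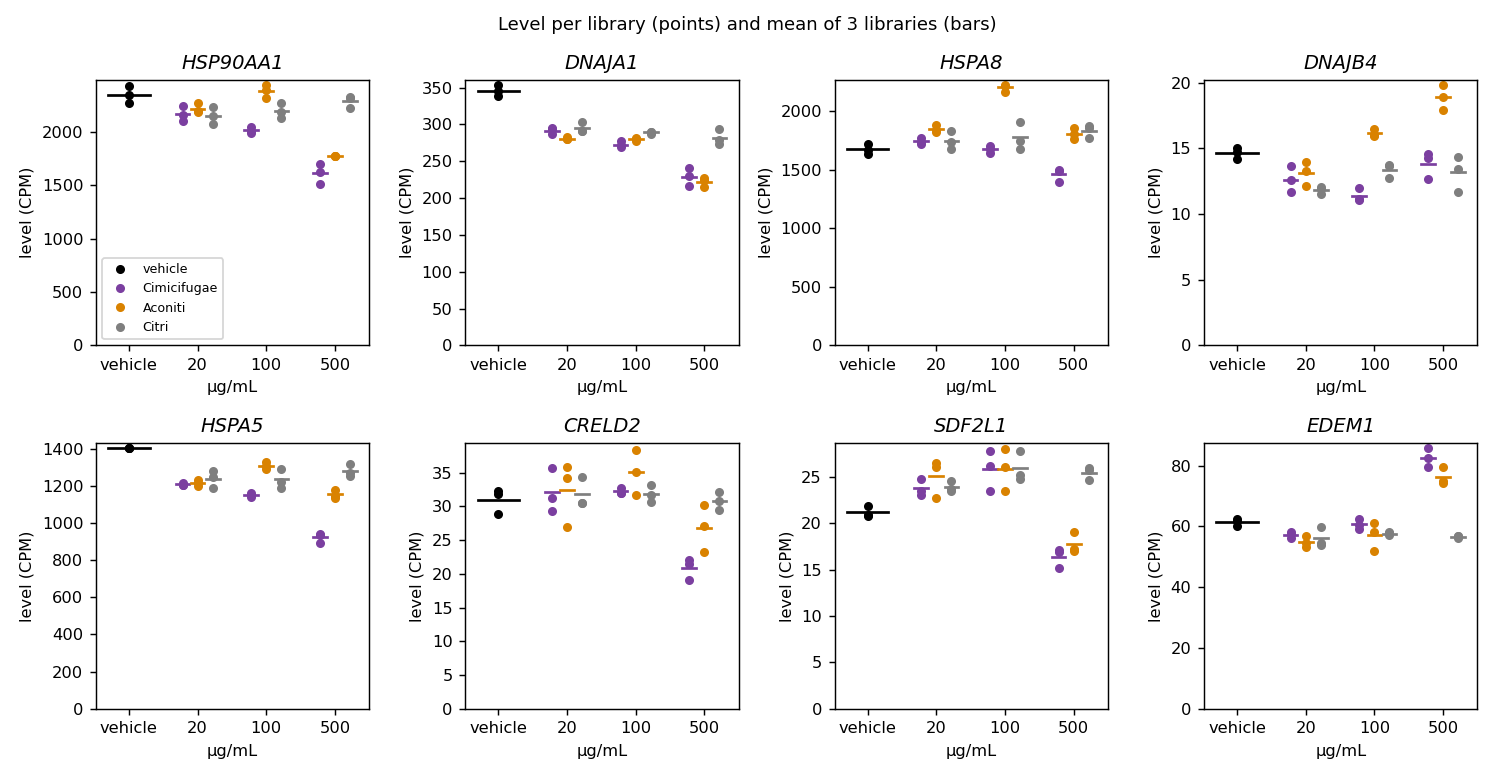
Level in CPM of 8 members in single libraries (points) of vehicle and of 20, 100 and 500 µg/mL of Cimicifugae Rhizoma, Aconiti Lateralis Radix Preparata and Citri Unshius Pericarpium, with group means as short bars. With Cimicifugae Rhizoma HSP90AA1, HSPA5 and CRELD2 are lowest at 500 µg/mL, and EDEM1 is highest there with Cimicifugae Rhizoma and Aconiti Lateralis Radix Preparata.

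With Aconiti Lateralis Radix Preparata (Aconiti below) members changed in different directions over the dose steps. At 100 against 20 µg/mL 6 heat shock members rose and 0 fell, and in the ER arm HSPA5 rose alone, where 5.68% of all tested genes were called. HSPA8 had 2228, 2218 and 2168 CPM at 100 µg/mL, against 1885, 1822 and 1840.5 CPM at 20 µg/mL, with no overlap (log2 0.25 ± 0.039, adjusted p = 9.98e-06, edgeR). HSP90AB1 rose by 0.12 ± 0.028 (adjusted p = 0.00487). The calls of the other 5 were lost without single libraries: DNAJB4 (0.30) was lost without library 2 at either dose (0.25 to 0.28) and HSPA1B (0.24) without any library but library 1 at 100 µg/mL (0.21 to 0.25), while the summed counts of HSPA1A and HSPA1B were not called (0.21, adjusted p = 0.0642). HSPH1 (0.14) was lost without library 1 or 2 at 100 µg/mL or library 2 or 3 at 20 µg/mL (0.11 to 0.13). HSPA9 (0.11) and HSPA5 (0.10) were lost without any 1 of the 6 libraries (0.099 to 0.12 and 0.093 to 0.11), so that leaving out a library left 2 to 4 heat shock calls and 0 ER calls. In the other 5 extracts no member was called at this step by edgeR with low counts filtered and no replicate block, where the share of all tested genes called was 0.0249% with Citri Unshius Pericarpium, 1.29% with Cimicifugae Rhizoma, 0.162% with Bupleuri Radix, 1.24% with Yijung-tang and 0.0124% with Banhasasim-tang. At an unadjusted p under 0.05, edgeR gave 1 heat shock and 0 ER members for Citri Unshius Pericarpium, 3 and 2 for Cimicifugae Rhizoma, 1 and 1 for Bupleuri Radix, 3 and 3 for Yijung-tang and 0 and 1 for Banhasasim-tang, while DESeq2 called 0 heat shock members and 1 ER member over these 5. Under other edgeR settings Yijung-tang had up to 2 heat shock calls and 1 ER call, both without the filter. Cimicifugae Rhizoma had 1 ER call with the block or on its own groups. Shares of all tested genes at the unadjusted threshold and under these other settings are not given. These counts are therefore not set against a background and are not read as a response of the members.

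At 500 against 100 µg/mL of Aconiti, a comparison added after the values of the members had been seen, 11 heat shock members fell and 1 rose, and 9 ER members fell and 3 rose, where 30.7% of all tested genes were called. HSPA8 stood at 1861, 1762 and 1803 CPM at 500 µg/mL, against 2228, 2218 and 2168 CPM at 100 µg/mL (log2 -0.29 ± 0.039, adjusted p = 3.69e-08, edgeR). Between 500 and 20 µg/mL HSPA8 was not called, with a log2 fold change of -0.038 ± 0.039 (adjusted p = 0.477). HSPA1B had 204, 190.4 and 234 CPM at 500 µg/mL, against 292, 325 and 317 CPM at 100 µg/mL (log2 -0.57 ± 0.073). Of the 24 calls of this step HSPA4 was lost without library 3 at 500 µg/mL (-0.067), HSPD1 without the same library (-0.12), HSPB1 without library 2 at either dose or library 3 at 100 µg/mL (-0.23 to -0.15) and DNAJB4 without library 1 at either dose or library 3 at 100 µg/mL (0.19 to 0.22). HSPH1 was lost without library 1 at either dose, library 2 at 100 or library 3 at 500 µg/mL (-0.12 to -0.088), and MANF without library 2 or 3 at 100 or library 3 at 500 µg/mL (-0.18 to -0.16).

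Across the whole step of 500 against 20 µg/mL, 6 heat shock members fell and 1 rose with Aconiti, and 7 ER members fell and 3 rose. That is 17 of 35, 48.6%, where 37.2% of all tested genes were called. The median absolute log2 fold change was smaller for members, 0.088, than for all genes, 0.19. DNAJA1 had 227, 224 and 214 CPM at 500 µg/mL, against 279.6, 283 and 279 CPM at 20 µg/mL (log2 -0.35 ± 0.041, adjusted p = 1.29e-09, edgeR), and HSP90AA1 had 1775, 1775 and 1771 CPM against 2268, 2195 and 2189.7 CPM (log2 -0.33 ± 0.043, adjusted p = 1.72e-08). Neither overlapped. The summed counts of HSPA1A and HSPA1B gave -0.32. HSPB1, which holds unfolding proteins in a form that can be refolded, fell by 0.26 and HSP90AB1 by 0.086. HSPB1 lost its call without library 2 at either dose (-0.17 and -0.21), and HSP90AB1 without library 1 at 500 µg/mL or library 3 at 20 µg/mL (-0.066 and -0.075).

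DNAJB4 was the only heat shock member that rose with Aconiti over this step. It had 19.8, 18.9 and 17.9 CPM at 500 µg/mL, against 13.9, 12.1 and 13.2 CPM at 20 µg/mL, with no overlap (log2 0.52 ± 0.078, adjusted p = 3.01e-07, edgeR). In the ER arm EDEM1 had 74.9, 79.7 and 74.4 CPM against 56.98, 53.3 and 54.5 CPM (log2 0.47 ± 0.047), and DNAJB9, an ER J-domain protein that promotes degradation and restrains IRE1, had 28.8, 29.6 and 30.7 CPM against 21.8, 21.3 and 22.5 CPM (log2 0.43 ± 0.074). ATF6 rose by 0.22 ± 0.048. Those that fell were SDF2L1 by 0.51, CRELD2 by 0.28, XBP1 by 0.27, CALR by 0.25, PDIA4 by 0.19, DNAJB11 by 0.12 and HSPA5 by 0.079. CRELD2 libraries overlapped, and its call was lost without library 2 at either dose or library 3 at 20 µg/mL (-0.23 to -0.19). DNAJB11 lost its call without library 1 at either dose, library 2 at 500 or library 3 at 20 µg/mL (-0.12 to -0.098), and HSPA5 without any library but library 2 at 500 µg/mL (-0.087 to -0.062).

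The summed level of the RNA-quality list was higher at each higher dose of Aconiti. Its 8 genes summed to 22850 to 25690 CPM in vehicle libraries, 32540 to 33820 at 20 µg/mL, 87710 to 96020 at 100 and 137200 to 141900 CPM at 500 µg/mL. MEG3 was at 0 in 34 of the 60 libraries. Between 500 and 20 µg/mL 4 of 7 tested genes were higher and 1 lower, led by the mitochondrial ribosomal RNAs MT-RNR1 (log2 2.77 ± 0.063) and MT-RNR2 (1.88 ± 0.066). Hepatocyte markers summed to 40090 to 40670 CPM at 500 µg/mL, against 44500 to 45160 CPM at 20 µg/mL, with 2 of 12 higher and 6 lower. Whether these shifts play a part in the chaperone levels was not tested.

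Bupleuri Radix, Yijung-tang, Banhasasim-tang and Citri Unshius Pericarpium had fewer members called than Cimicifugae Rhizoma or Aconiti. For Bupleuri Radix at 500 against 20 µg/mL 5 heat shock members fell and 3 ER members rose, 8 of 35 or 22.9%, where 18.8% of all tested genes were called. The median absolute log2 fold change was 0.085 for members and 0.12 for all genes. HSP90AA1 had 1845, 1834 and 1813 CPM at 500 µg/mL, against 2206, 2167 and 2136 CPM at 20 µg/mL (log2 -0.25 ± 0.043, adjusted p = 1.75e-05, edgeR). DNAJA1 fell by 0.25 ± 0.041, HSPA1A by 0.23, HSPA9 by 0.12 and HSP90AB1 by 0.089. EDEM1 rose by 0.29 ± 0.046, HERPUD1 by 0.20 ± 0.048 and ATF6 by 0.16. HSPA1A lost its call without library 1 at either dose, library 2 at 500 or library 3 at 20 µg/mL (-0.22 to -0.19), HSP90AB1 without library 2 at 20 or library 3 at either dose (-0.086 to -0.083) and ATF6 without library 1 at either dose (0.14 and 0.15). Without library 3 at 20 µg/mL 3 heat shock members were called, and without library 3 at 500 µg/mL 6 ER members. With the GC trend removed 8 heat shock and 6 ER members were called. The RNA-quality list summed to 42490 to 46260 CPM at 500 µg/mL, against 31790 to 33150 CPM at 20 µg/mL, with 2 of 7 tested genes higher, and its part in these calls was not tested.

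With Banhasasim-tang 4 heat shock members fell and 1 rose, and 2 ER members fell and 3 rose. These 10 of 35 are 28.6%, where 15.1% of all tested genes were called. The median absolute log2 fold change was 0.084 for members and 0.11 for all genes. HSPB1 had 53.3, 52.6 and 48.8 CPM at 500 µg/mL, against 58.8, 72.0 and 65.6 CPM at 20 µg/mL (log2 -0.34 ± 0.084, adjusted p = 0.00272, edgeR). DNAJC3, an ER cochaperone that also inhibits the kinase PERK, had 115, 112 and 115 CPM against 97.1, 88.5 and 95.7 CPM, with no overlap (log2 0.29 ± 0.059, adjusted p = 0.000296). EDEM1 rose by 0.23 ± 0.046, CANX by 0.13 and HSPA4 by 0.11. DNAJA1 fell by 0.15, DNAJB1 by 0.12, DNAJB11 by 0.14 and XBP1 by 0.13. HSPA1A fell by 0.22 with overlapping libraries, and the summed counts of HSPA1A and HSPA1B were not called (-0.14, adjusted p = 0.188). Calls were also lost for HSPA1A without library 1 or 2 at 20 or library 2 or 3 at 500 µg/mL (-0.23 to -0.16), HSPA4 without library 3 at 500 µg/mL (0.10), DNAJB1 without library 1 or 2 at 20 or library 2 at 500 µg/mL (-0.12) and CANX without library 2 at 20 µg/mL (0.085). DNAJB11 was lost without library 1 at 20 or library 3 at 500 µg/mL (-0.13 and -0.11), and XBP1 without library 1 or 3 at 500 or library 2 or 3 at 20 µg/mL (-0.13 to -0.12). Leaving out library 2 or 3 at 500 µg/mL or library 2 at 20 µg/mL left 3 heat shock calls, and leaving out library 2 at 20 or library 3 at 500 µg/mL left 3 ER calls. Without a filter on low counts 3 heat shock and 2 ER members were called. The RNA-quality list summed to 40060 to 43420 CPM at 500 µg/mL, against 29620 to 33460 CPM at 20 µg/mL, with 2 of 7 tested genes higher, and its part in the Banhasasim-tang calls was not tested.

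With Yijung-tang 4 ER members fell and no other member was called, 4 of 35 or 11.4%, where 3.77% of all tested genes were called. The median absolute log2 fold change was 0.054 for members and 0.085 for all genes. DNAJB11 had 115, 114 and 113 CPM at 500 µg/mL, against 127, 130.4 and 138 CPM at 20 µg/mL (log2 -0.21 ± 0.043, adjusted p = 0.000775, edgeR). SEL1L fell by 0.22 ± 0.046, HSPA5 by 0.13 ± 0.031 and HSP90B1 by 0.11 ± 0.034. Leaving out library 1 at 500 µg/mL or library 1 or 3 at 20 µg/mL left 2 of these calls, as did fitting without a filter on low counts or on the groups of Yijung-tang and vehicle alone. The RNA-quality list summed to 34900 to 39740 CPM at 500 µg/mL, against 29480 to 30620 CPM at 20 µg/mL of Yijung-tang, and to 39110 to 41080 CPM against 33200 to 37800 CPM for Citri Unshius Pericarpium. Its part in the calls was not tested. HSPA5 was lost without library 1 at 500 or library 3 at 20 µg/mL (-0.11), SEL1L without library 1 at 20 µg/mL (-0.17) and HSP90B1 without any 1 of the 6 libraries (-0.12 to -0.11). With Citri Unshius Pericarpium the XBP1 level was 332, 326 and 307 CPM at 500 µg/mL, against 379, 358 and 353 CPM at 20 µg/mL. It was the only member called (log2 -0.18 ± 0.042, adjusted p = 0.0132), where 1.65% of all tested genes were called, and it was lost without library 1 at 20 or library 3 at 500 µg/mL (-0.15 and -0.14).

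**Figure D3:**
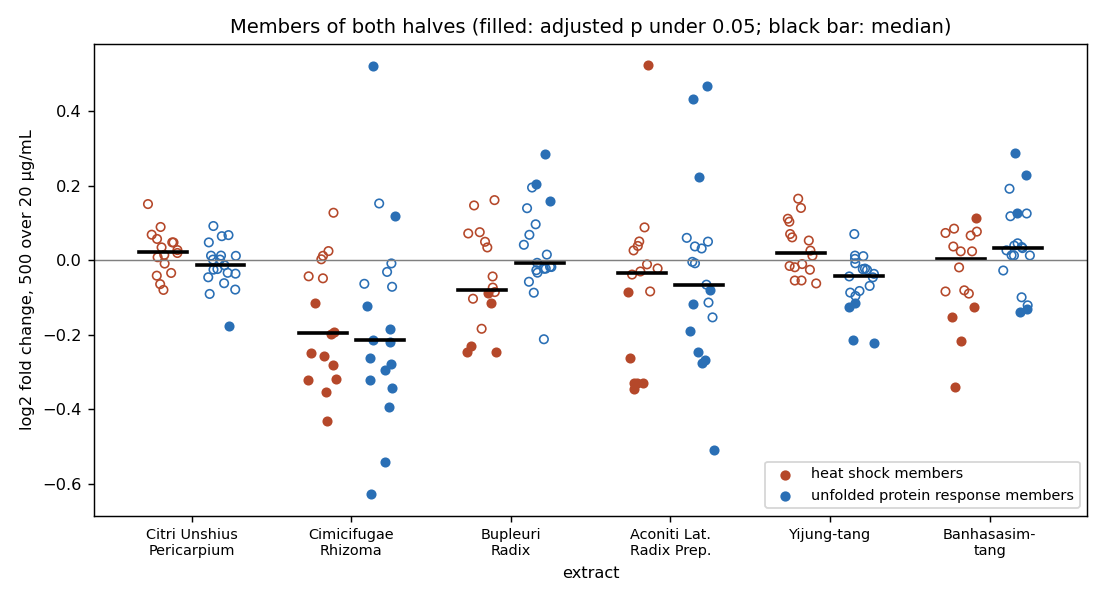
Log2 fold changes at 500 against 20 µg/mL in the heat shock arm (16 members) and the unfolded protein response arm (19 members) for each of the 6 extracts, with a point per member, filled where it was called, and a black bar at the median. Both medians lie lowest with Cimicifugae Rhizoma, at -0.20 and -0.21, and from -0.079 to 0.033 in the other extracts.

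Read by member rather than by extract, 4 genes fell in 4 of the 6 extracts at 500 against 20 µg/mL: HSPA1A, DNAJA1, DNAJB11 and XBP1. Of all tested genes 3.15% fell in 4 or more. Without a filter on low counts 2 members did. Some of these calls were lost when single libraries were left out. They were HSPA1A with Bupleuri Radix and Banhasasim-tang, DNAJB11 with Aconiti and Banhasasim-tang, and XBP1 with Citri Unshius Pericarpium and Banhasasim-tang. The summed counts of HSPA1A and HSPA1B were not called with Banhasasim-tang. DNAJA1 fell in the Cimicifugae, Bupleuri, Aconiti and Banhasasim libraries, by 0.35, 0.25, 0.35 and 0.15, and was -0.064 in Citri and -0.025 in Yijung-tang libraries, where it was not called. EDEM1 rose in 4 extracts and ATF6 in 3, where 9.07% of all tested genes rose in 3 or more. The ATF6 call with Cimicifugae Rhizoma, on which its count of 3 rests, was lost with median ratio factors, no filter, the replicate block, DESeq2 and a fit on its own groups. HSPH1, BAG3, HSF1, PDIA3 and PDIA6 were called in none of the 6 extracts. Called members of the 2 arms went opposite ways with Bupleuri Radix, with 5 heat shock members lower and 3 ER members higher. They are 31.2% of the heat shock and 15.8% of the ER arm, against 18.8% of all tested genes called. The median log2 fold change was -0.079 in the heat shock arm and -0.0068 in the ER arm. The difference between the arms was not tested.

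Differences between extracts were tested directly as differences of the 500 against 20 µg/mL effect, first within the 3 title sets. Cimicifugae Rhizoma minus Citri Unshius Pericarpium differed in 20 members, 18 lower and 2 higher, where 28.2% of all tested genes differed. For HSPA5 the effect was -0.39 with Cimicifugae Rhizoma and 0.048 with Citri Unshius Pericarpium, a difference of -0.44 ± 0.044 (adjusted p = 2.49e-11, edgeR). For HSP90AA1 it was -0.43 and 0.089 in the same order, a difference of -0.52 ± 0.061 (adjusted p = 2.06e-09). Both extracts were also compared at 500 µg/mL alone: 24 members differed, 22 lower and 2 higher with Cimicifugae Rhizoma, where 41.8% of all tested genes differed. HSPA5 averaged 923 ± 25.8 CPM with Cimicifugae Rhizoma and 1280 ± 32.7 CPM with Citri Unshius Pericarpium (SD, n = 3 each).

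Aconiti minus Bupleuri Radix differed in 5 members, where 10.2% of all tested genes differed. DNAJB4 (0.36 ± 0.11) and HSPA9 (0.17 ± 0.047) responded higher with Aconiti, and XBP1 (-0.25 ± 0.059), PDIA4 (-0.16 ± 0.051) and CALR (-0.16 ± 0.053) lower. The count was 2 without library 1 of Bupleuri Radix or library 2 of Aconiti at 20 µg/mL. It was 3 without library 2 or 3 of Bupleuri Radix or library 1 or 2 of Aconiti at 500 µg/mL, or library 2 of Bupleuri Radix or library 3 of Aconiti at 20 µg/mL. At 500 µg/mL alone 15 members differed, 4 higher and 11 lower with Aconiti, where 23.5% of all tested genes differed. The EDEM1 response, 0.47 with Aconiti and 0.29 with Bupleuri Radix, did not pass the test of the difference (0.18 ± 0.066, adjusted p = 0.0678).

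Banhasasim-tang minus Yijung-tang differed in 7 members, 6 higher and 1 lower, where 12.1% of all tested genes differed. DNAJC3 changed by 0.29 with Banhasasim-tang and -0.10 with Yijung-tang, a difference of 0.38 ± 0.083 (adjusted p = 0.000839, edgeR). EDEM1 (0.25), SEL1L (0.24), HYOU1 (0.21), HSPA5 (0.16) and HSPA4 (0.13) were the other higher ones. HSPA1A was lower (-0.33), and the summed counts of HSPA1A and HSPA1B did not pass (-0.27, adjusted p = 0.06). At 500 µg/mL alone 10 ER members were higher and 0 lower with Banhasasim-tang, while 4 heat shock members were lower and 0 higher, where 14.9% of all tested genes differed. The 4 were HSPA1A, HSPA1B, HSP90AA1 and DNAJA1. Without library 1 of Yijung-tang at 500 µg/mL these 14 became 8, and the 7 of the dose effect became 3 without library 2 of Banhasasim-tang at 20 µg/mL and 4 without library 1 of Yijung-tang at 500 or library 1 or 3 at 20 µg/mL.

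The 2 extracts with the most members called come from different title sets, but the difference of their dose effects sets each against its own 20 µg/mL libraries. Aconiti minus Cimicifugae Rhizoma differed in 7 members, all higher, where 6.22% of all tested genes differed. HSPA5 fell by 0.079 with Aconiti and by 0.39 with Cimicifugae Rhizoma, a difference of 0.32 ± 0.044 (adjusted p = 1.46e-06, edgeR). HYOU1 (0.26), HSP90B1 (0.20), HSPA9 (0.25), HSPD1 (0.24), HSPA8 (0.22) and DNAJB4 (0.40) were the others. HSP90AA1, DNAJA1 and SDF2L1, which fell with both, did not pass the test of the difference (0.10 ± 0.061, 0.0073 ± 0.058 and 0.03 ± 0.13).

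Around the members, other genes of the same pathways were read from lists of related function at 500 against 20 µg/mL. Their counts stand against the shares of all tested genes called, 39.2% with Cimicifugae Rhizoma, 37.2% with Aconiti, 18.8% with Bupleuri Radix, 15.1% with Banhasasim-tang, 3.77% with Yijung-tang and 1.65% with Citri Unshius Pericarpium. The PERK-ATF4 branch, which controls amino acid supply and cell survival under ER stress, moved up with 2 extracts. With Cimicifugae Rhizoma 8 of its 10 tested genes rose and 0 fell (80.0% called, median 0.38 against 0.0033 over all genes), and with Aconiti 9 of 10 rose and 0 fell (90.0% called, median 0.52 against 0.0012). ATF3, a stress-induced transcription factor, rose by 1.14 ± 0.12 and PPP1R15A, which restarts translation, by 1.02 ± 0.11 with Cimicifugae Rhizoma. ASNS, the asparagine synthetase, rose by 1.46 ± 0.055 and TRIB3 by 0.53 ± 0.040 with Aconiti. The other extracts had fewer calls in this branch. In Citri libraries 0 genes rose and 2 fell (20.0% called), and in Yijung-tang libraries 0 rose and 1 fell (10.0%). Bupleuri libraries had 2 up and 1 down (30.0%), and Banhasasim-tang libraries 2 up and 2 down (40.0%).

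ERN1, the gene of the sensor IRE1, rose by 0.55 ± 0.067 with Cimicifugae Rhizoma, 0.96 ± 0.063 with Aconiti, 0.37 ± 0.065 with Bupleuri Radix and 0.30 ± 0.065 with Banhasasim-tang. The whole list of 7 sensors and proteases had 3 up and 1 down, 4 and 0, 2 and 0 and 2 and 1 in these extracts, in that order, and 1 and 0 in Citri and in Yijung-tang libraries. The shares called were 57.1%, 57.1%, 28.6% and 42.9% in the first 4 and 14.3%, 1 gene of 7, in the last pair. Of 14 tested genes of ER-associated degradation, 6, 5, 3 and 3 rose in the Cimicifugae, Aconiti, Bupleuri and Banhasasim libraries and none fell in any of the 6 extracts. At 42.9%, 35.7%, 21.4% and 21.4% called, these shares lie near those of all tested genes. EDEM3, a relative of EDEM1, rose by 0.42 ± 0.050 with Cimicifugae Rhizoma and 0.48 ± 0.049 with Aconiti. 

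ER folding enzymes outside the member list went both ways with the 2 extracts that changed most members. Of 21, 7 rose and 4 fell with Cimicifugae Rhizoma (median 0.029), 6 and 2 with Aconiti, 10 and 0 with Bupleuri Radix and 8 and 0 with Banhasasim-tang, and none was called with Citri Unshius Pericarpium or Yijung-tang. The shares called were 52.4%, 38.1%, 47.6% and 38.1% in these 4 extracts, of which that of Aconiti lies near the share of all genes. DNAJC10, an ER disulfide reductase with a J domain, and ERO1A, the oxidase that recharges disulfide isomerases, rose in all 4 of the extracts with calls, by 0.48 ± 0.037 and 0.55 ± 0.045 with Aconiti. Of 20 genes of ER entry and transport 5 rose and 5 fell with Cimicifugae Rhizoma, 12 and 2 with Aconiti, 9 and 0 with Bupleuri Radix and 9 and 0 with Banhasasim-tang, with none called in the other 2. That is 50%, 70.0%, 45.0% and 45.0% called. KDELR3, a receptor that returns escaped chaperones to the ER, rose by 0.73 ± 0.060 and KDELR2, its paralog, changed by -0.22 ± 0.041 with Cimicifugae Rhizoma.

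On the cytosolic side, 27 tested cochaperones and further heat shock genes had 3 up and 9 down with Cimicifugae Rhizoma (median -0.054), 4 and 6 with Aconiti, 1 and 4 with Bupleuri Radix, 2 and 1 with Banhasasim-tang, 1 and 0 with Citri Unshius Pericarpium and 0 and 1 with Yijung-tang. With 44.4%, 37.0%, 18.5% and 11.1% called in the first 4, this list lies near the shares of all tested genes. STIP1, which passes clients from HSP70 to HSP90, had a log2 fold change of -0.39 ± 0.044 with Cimicifugae Rhizoma and -0.30 ± 0.044 with Aconiti. HSPA12A, a distant HSP70 relative, went up by 0.53 ± 0.056 and 0.85 ± 0.054 in the same extracts. The 14 genes of the chaperonin TRiC and prefoldin had 0 up and 4 down with Cimicifugae Rhizoma, 3 and 0 with Aconiti, 0 and 1 with Bupleuri Radix and 1 and 0 with Citri Unshius Pericarpium. Of 12 further mitochondrial chaperones and proteases 2 rose and 2 fell with Cimicifugae Rhizoma, 2 and 0 with Aconiti and 1 and 0 with Banhasasim-tang. Both lists had smaller shares called with Cimicifugae Rhizoma (28.6% and 33.3%) and Aconiti (21.4% and 16.7%) than all tested genes.

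**Figure D4:**
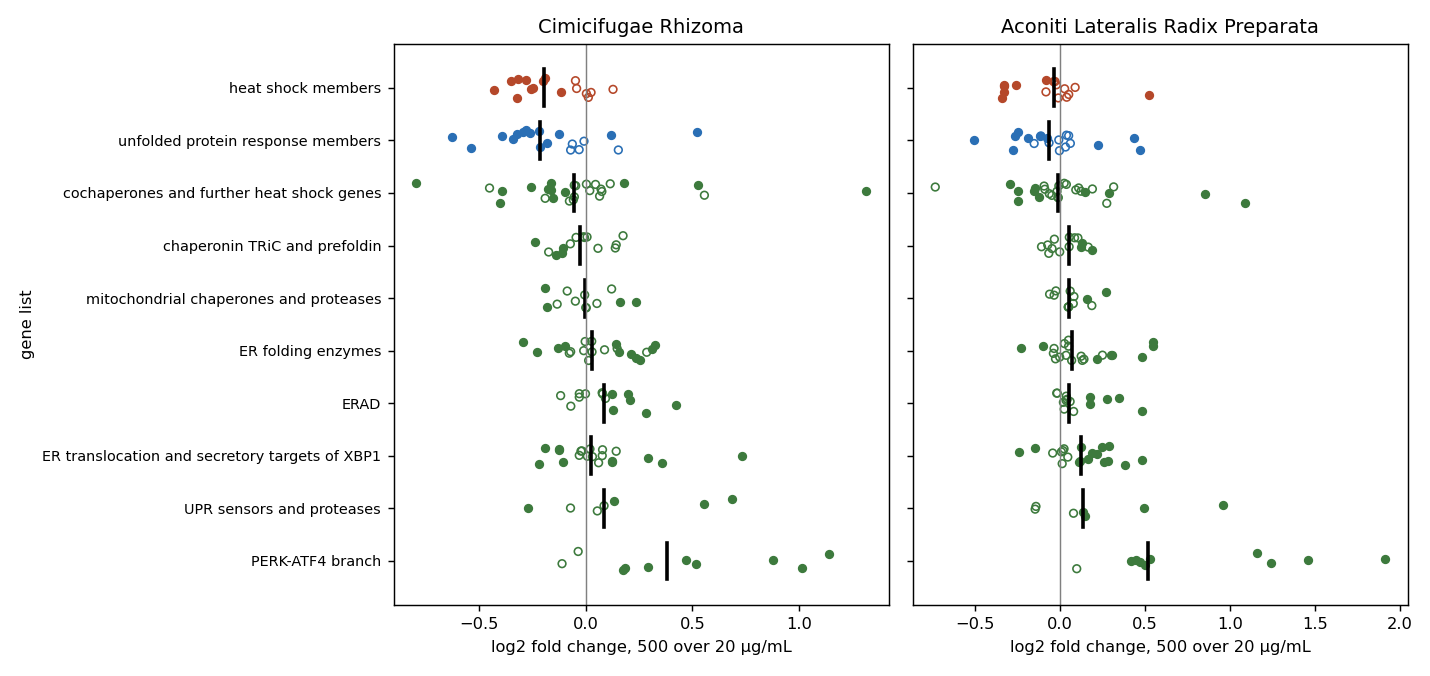
Log2 fold change at 500 against 20 µg/mL of each tested gene (points, filled where called) in both member arms and 8 related lists (rows), for Cimicifugae Rhizoma and Aconiti Lateralis Radix Preparata, with a black bar at each median. With Cimicifugae Rhizoma most called members lie left of 0 (10 and 12 lower), while the PERK-ATF4 branch lies to the right in both extracts (8 and 9 higher, 0 lower).

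Against vehicle, some members were called the same way in all 6 extracts at the lowest dose. At 20 µg/mL BAG3, HSF1 and HSPB1 were higher than in vehicle libraries in all 6 extracts, where 6.23% of all tested genes were, and HSPA4, DNAJA1, HSPD1, HSPA5, HSP90B1 and PDIA6 were lower in all 6, where 3.36% were. All 6 comparisons share the same 3 vehicle libraries. BAG3, an exchange factor of HSP70 in autophagy, had 40.9, 41.2 and 38.1 CPM at 20 µg/mL of Citri Unshius Pericarpium, against 33.2, 30.5 and 33.0 CPM in vehicle libraries (log2 0.32 ± 0.081). In a further fit the trend on transcript GC content of each library's levels, relative to the gene means over libraries, was removed. BAG3 then came to 0.19 with Citri Unshius Pericarpium, and 0 members stayed higher and 0 lower in all 6 extracts. Title set, solvent and treatment cannot be told apart here.

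**Figure D5:**
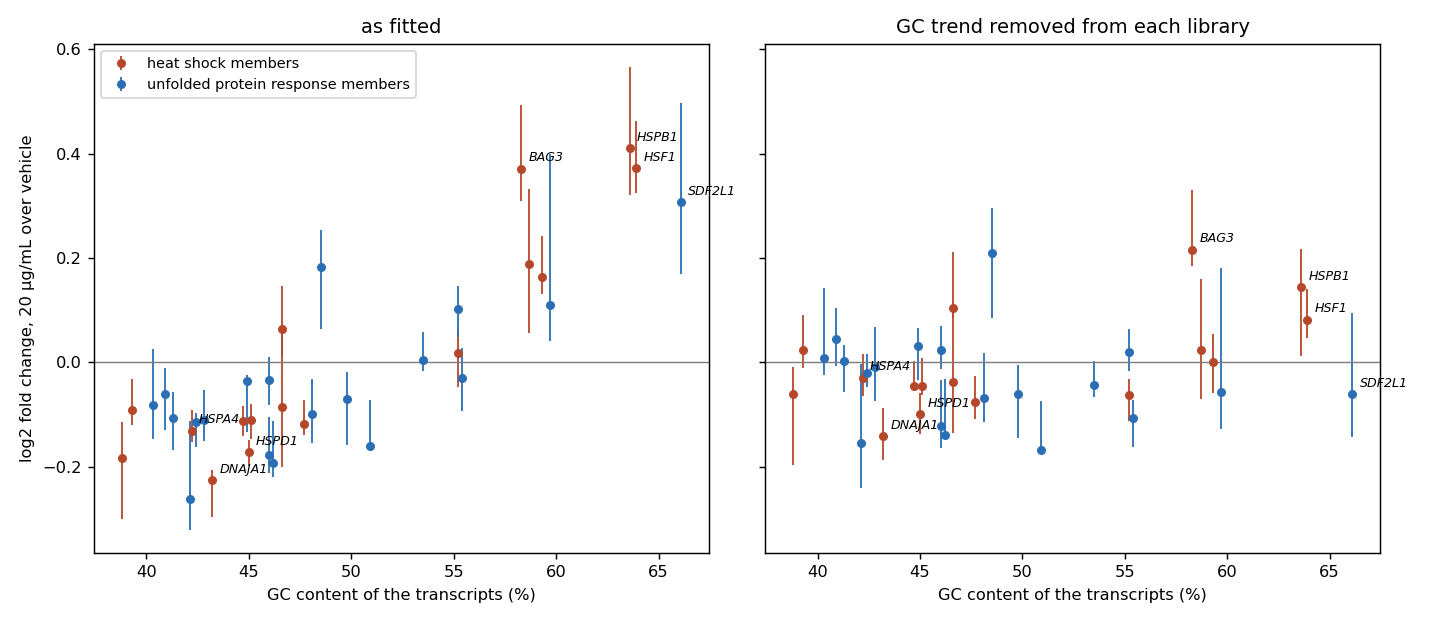
Median (point) and range (line) over 6 extracts of each member's log2 fold change at 20 µg/mL against vehicle, over the GC content of its transcripts in percent, as fitted (left) and with the GC trend removed (right). As fitted, members of high GC content such as HSPB1, HSF1 and BAG3 lie above 0 and DNAJA1 and HSPD1 below it, while with the trend removed no member was called one way in all 6 extracts.

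At 500 µg/mL against vehicle, 12 heat shock members were lower and 3 higher with Cimicifugae Rhizoma, and 15 ER members lower and 1 higher, where 45.8% of all tested genes were called. With the GC trend removed these were 10 and 2, and 14 and 2. HSPA5 came to -0.61, and -0.57 with the trend removed. For Aconiti 5 heat shock members fell and 4 rose, and 10 ER members fell and 2 rose (47.4% of all genes called), and 6 and 4, and 11 and 3, with the trend removed. The 4 other extracts had fewer lower members than Cimicifugae Rhizoma. Heat shock members had 4 higher and 5 lower with Citri Unshius Pericarpium (22.5% of all genes called), 3 and 5 with Bupleuri Radix (35.7%), 6 and 5 with Yijung-tang (32.6%) and 3 and 5 with Banhasasim-tang (34.7%). ER members had 1 and 6, 3 and 6, 3 and 8, and 6 and 3 in the same extracts. With the trend removed Citri Unshius Pericarpium had 1 heat shock member higher and 1 lower and 1 ER member higher and 3 lower, and Yijung-tang had 3 and 1 heat shock and 1 and 5 ER members. Without library 1 of Yijung-tang at 500 µg/mL its 11 heat shock calls became 7, and without vehicle library 1 the 9 ER calls of Banhasasim-tang became 5.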

How the data were processed

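Messenger RNA of 60 libraries of HepG2 cells was measured after 24 h with extract or vehicle. Per the labels' protocols, the MGIEasy RNA Directional kit and an MGIseq instrument gave paired-end reads of 100 bp. Per the submitters' processing notes, FastQC 0.11.9, Trim Galore 0.6.5, STAR 2.7.3a, RSEM 1.3.3 and hg38 were used; the annotation release is not given in the sources used here. The deposited table holds expected counts per Ensembl gene, made by the authors and not normalized, of which 24.5% of nonzero values are not whole. It has 207 columns beyond the samples of this series, which were left out. The labels give 0.1% DMSO as vehicle while the series text names 2% DMSO and a wortmannin control, which was not analysed here, and it states that doses were lowered for toxic extracts and low-RNA samples dropped.

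After rounding, edgeR 4.0.16 in R 4.3.3 fitted the counts (TMM, filterByExpr, glmQLFit and glmQLFTest), with 57 libraries in 19 groups sharing one estimate of the spread. Genes were called at an adjusted p under 0.05 (Benjamini-Hochberg over 16093 genes, per comparison). Standard errors are the fold change divided by the square root of the quasi-likelihood F. Comparisons were 500 and 100 against 20 µg/mL, each dose against vehicle, differences of the dose effect between extracts (15 pairs fitted, 4 reported) and extracts of 1 title set at 500 µg/mL. Symbols, exon lengths, coordinates and transcript GC content came from GENCODE 29, which lists 57055 of the 60675 genes; the other 3620 hold 0.0398% of counts. The fit was also run on simulated counts, drawn independently and with far fewer changed genes than were called with Cimicifugae Rhizoma. Its outcome is not given here, and no result rests on it. Same-numbered libraries of an extract correlated by -0.056 to 0.246 in their deviations, not above 0.1 in every pair, so numbers were not taken as pairs. This does not exclude pairing. Libraries 1, 2 and 3 of Aconiti at 500 µg/mL each correlated best with the library of their own number at 20 µg/mL. So did libraries 1 and 3 of Citri, 1 and 2 of Cimicifugae, 3 of Bupleuri, and 1 and 2 of Yijung-tang and of Banhasasim-tang. The others correlated best with another number.

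The members and lists were chosen with earlier results of these data known. The rule for full statistics allows called members without overlap, in order of absolute fold change, at most 8 per arm (heat shock or ER); within it, those printed with library values were picked after values were seen, not always in that order, and the others have fold changes only. At most 3 called genes of a related list are named. The windows of HSPA5, and 500 against 100 µg/mL, were chosen after values were seen. Alternatives were DESeq2 1.42.0, size factors by median ratio, other filters, removal of a GC trend per library, the replicate number as a block, fits on the groups compared alone, and leaving out each library.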

Additional observations from a re-analysis of the deposited data

Results flagged for a closer look

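Members whose response to dose differed between 2 extracts were picked out by the test of the difference itself (log2 fold change of 500 against 20 µg/mL in the first extract minus that in the second, adjusted p under 0.05, edgeR). For Cimicifugae Rhizoma minus Citri Unshius Pericarpium these differences were HSPA1B -0.35, HSPA8 -0.33, HSP90AA1 -0.52, HSP90AB1 -0.24, DNAJA1 -0.29, HSPA9 -0.21, HSPD1 -0.30, HSPA5 -0.44, HSP90B1 -0.24, HYOU1 -0.23, CALR -0.32, CANX -0.19, PDIA4 -0.34, DNAJB11 -0.18, SDF2L1 -0.63, SEL1L -0.24, EDEM1 0.51, CRELD2 -0.58, MANF -0.28 and ATF6 0.18. HSP90AA1 and HSPA5 were lower in 3 of 3 libraries at 500 than at 20 µg/mL with Cimicifugae Rhizoma, and were not called with Citri Unshius Pericarpium. Of these 20, DNAJB11 was lost without library 1 at 500 or library 3 at 20 µg/mL of Citri or library 1 at 20 or library 3 at 500 µg/mL of Cimicifugae (-0.15 to -0.13). MANF was lost without library 1 at 500 or library 3 at 20 µg/mL of Citri or library 3 at 500 µg/mL of Cimicifugae (-0.24 to -0.21). ATF6 was lost without library 1 at 20 or library 2 or 3 at 500 µg/mL of Citri, or library 1 or 2 at 20 or library 3 at 500 µg/mL of Cimicifugae (0.12 to 0.19).

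For Aconiti minus Cimicifugae Rhizoma the differences were HSPA8 0.22, DNAJB4 0.40, HSPA9 0.25, HSPD1 0.24, HSPA5 0.32, HSP90B1 0.20 and HYOU1 0.26. DNAJB4 was lost without library 2 at 500 or 20 µg/mL of Cimicifugae, library 1 at 500 or library 2 at 20 µg/mL of Aconiti (0.34 to 0.36).

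For Aconiti minus Bupleuri Radix they were DNAJB4 0.36, HSPA9 0.17, CALR -0.16, PDIA4 -0.16 and XBP1 -0.25. DNAJB4 was lost without library 1 at 20 or library 2 at 500 µg/mL of Bupleuri, or library 1 at 500 or library 2 at 20 µg/mL of Aconiti (0.31 to 0.35). PDIA4 was lost without library 1 or 2 at 20 or library 3 at 500 µg/mL of Bupleuri, or library 2 at either dose or library 3 at 20 µg/mL of Aconiti (-0.16 to -0.13). CALR was lost without 8 of the 12 libraries, all but library 1 at 500 and library 3 at 20 µg/mL of Bupleuri and library 1 at 20 and library 3 at 500 µg/mL of Aconiti (-0.17 to -0.12).

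For Banhasasim-tang minus Yijung-tang they were HSPA1A -0.33, HSPA4 0.13, HSPA5 0.16, HYOU1 0.21, DNAJC3 0.38, SEL1L 0.24 and EDEM1 0.25. HSPA1A was lost without library 1 or 2 at 20 or library 2 at 500 µg/mL of Banhasasim-tang, or library 1 at 500 or library 2 at 20 µg/mL of Yijung-tang (-0.30 to -0.24). HSPA4 was lost without 8 of the 12, all but library 2 or 3 at 500 and library 2 at 20 µg/mL of Yijung-tang and library 3 at 20 µg/mL of Banhasasim-tang (0.095 to 0.13). HYOU1 was lost without library 1 or 3 at 20 or library 2 at 500 µg/mL of Yijung-tang, or library 1 at 500 or library 2 at 20 µg/mL of Banhasasim-tang (0.16 to 0.20). SEL1L was lost without library 1 at 20 or library 2 at 500 µg/mL of Yijung-tang or library 2 at 20 µg/mL of Banhasasim-tang (0.18 to 0.20), and HSPA5 without library 1 at 500 or library 3 at 20 µg/mL of Yijung-tang (0.13 and 0.14).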

How the results depend on the processing

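Of the 64 member calls at 500 against 20 µg/mL, DESeq2, the GC trend removed and the replicate block each kept 63 past the threshold, size factors by median ratio 62, fits on the groups compared alone 58 and no filter on low counts 49. Leaving out a library weakened 62 of 384 repeats of these calls and turned 0. The median of all genes moved by at most 0.0234 (log2) between scalings. For Bupleuri Radix the 5 heat shock calls became 8 with the GC trend removed and 9 with replicate block and GC trend, and its 3 ER calls became 6 and 7. Without a filter, the calls fell to 3 heat shock and 2 ER members for Banhasasim-tang and 2 ER members for Yijung-tang, which also had 2 on its own groups alone. At 100 against 20 µg/mL, Yijung-tang had 2 heat shock calls and 1 ER call without a filter and 1 heat shock call with block and GC trend. Cimicifugae Rhizoma had 1 ER call with the block, with DESeq2 and on its own groups, and the 1 ER call of Aconiti became 0 without a filter and on its own groups and 3 with block and GC trend. Against vehicle at 500 µg/mL, removal of the GC trend, alone and with the block, left 2 and 3 heat shock and 4 and 4 ER calls for Citri Unshius Pericarpium and 4 and 4 heat shock and 6 and 6 ER calls for Yijung-tang, which had 7 heat shock calls without a filter; Banhasasim-tang had 5 ER calls with the trend removed. The differing dose effects became 3 for Aconiti minus Bupleuri Radix without a filter and on their own groups and 2 for Banhasasim-tang minus Yijung-tang on their own groups. At 500 µg/mL that pair had 8 without a filter.

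The 4 members lower in 4 or more extracts became 2 without a filter. The 2 higher in 3 or more became 1 with median ratio factors, no filter, the block, DESeq2 and own groups. At 20 µg/mL against vehicle, the 3 members higher in all 6 extracts became 0 and the 6 lower became 0 with the GC trend removed, with and without the block, and the 6 became 2 without a filter and on own groups. The same removals turned the sign of 9 calls against vehicle: SDF2L1 at 500 µg/mL of Citri (-0.038), Yijung-tang (-0.011 and, with the block, -0.012) and Banhasasim-tang (-0.013), HSPB1 of Yijung-tang (-0.10) and Banhasasim-tang (-0.081 and -0.082), HSPA4 of Yijung-tang at 500 (0.021) and 20 µg/mL (0.017), and HSP90B1 of Banhasasim-tang at 500 (0.01) and 20 µg/mL (0.016). The causes were not tested.

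With 1 library left out, counts at 500 against 20 µg/mL ranged over 3 to 5 heat shock members for Bupleuri Radix and for Banhasasim-tang, and 2 to 6 ER members for Bupleuri Radix, 2 to 3 for Yijung-tang, 3 to 5 for Banhasasim-tang and 0 to 1 for Citri Unshius Pericarpium. At 100 against 20 µg/mL Aconiti had 2 to 4 and 0 to 0. Against vehicle Yijung-tang had 7 to 11 heat shock and Banhasasim-tang 5 to 8 ER calls. Differing dose effects numbered 2 to 6 for Aconiti minus Bupleuri Radix and 3 to 10 for Banhasasim-tang minus Yijung-tang, and 8 to 12 at 500 µg/mL for the same pair. Replicate numbers were not taken as pairs, though pairing is not excluded, and the block is given for its counts only. With 3 libraries per group, the smallest member change called at 500 against 20 µg/mL was HSPA5 with Aconiti, which fell by 0.079 on the log2 scale.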

Other observations

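Bojungikgi-tang, a further herbal mixture with 1 library at each dose, gave no replicate check. At 20, 100 and 500 µg/mL HSPA5 had 1264, 1299.6 and 1335 CPM, HSP90AA1 2223, 2131 and 2069 CPM and DNAJA1 305, 300.03 and 284 CPM. CRELD2 had 38.5, 41.2 and 40.9 CPM, SDF2L1 28.0, 30.5 and 28.6 CPM and EDEM1 64.3, 60.7 and 62.2 CPM. In these single libraries HSPA5 was highest and HSP90AA1 lowest at 500 µg/mL.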
